A study of Mus musculus with 4 samples.

Results

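The SLC25 carriers are the main family of transport proteins of the inner mitochondrial membrane, and their genes were followed here in cultured T cells labelled as wild type or as lacking Mthfd2, an enzyme of mitochondrial folate metabolism. Members were the rows of the count tables whose symbol begins with Slc25a and a number. Slc25a32, the mitochondrial folate and FAD carrier, and symbols of pseudogenes were left out. The rule gave 46 genes among 31748 in the tables, and 38 of the 46 had enough counts to be tested.

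The inner membrane is closed to most metabolites, so nucleotides, phosphate, amino acids, organic acids and cofactors cross it through carriers. An SLC25 protein is built of repeated units of paired helices and usually exchanges a compound of the cytosol for a compound of the matrix. In dividing T cells these carriers link glycolysis, the citric acid cycle, respiration and nucleotide supply. Several of them move substrates or products of one-carbon metabolism, among them glycine and S-adenosylmethionine.

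RNA-seq was done on 4 libraries, 2 labelled TEaWT (WT) and 2 labelled TEaMthfd2 KO (KO). Per the labels, all came from spleen CD4+ T cells of 8-week-old mice and were enriched by positive magnetic selection. Both groups were cultured for 3 days with mitomycin-treated antigen-presenting cells from spleens of F1 (BALB/c x C57BL/6) mice, so the WT cells share the TEa background and the stimulus. The comparison asks how transcripts differ between alloreactive T cells, those that respond to foreign tissue, with and without Mthfd2. The labels do not say how Mthfd2 was deleted, whether animals were pooled, or whether replicates were separate mice or cultures. P-values here thus reflect only how far these libraries spread, and that spread may be technical.

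Mthfd2 itself had 4581 and 4149 counts in WT replicates 1 and 2 and 3146 and 3510 counts in KO replicates 1 and 2. Its log2 fold change of -0.24 ± 0.14 (SE) did not pass the threshold (edgeR quasi-likelihood test, Benjamini-Hochberg adjusted p = 0.324), so WT and KO are used below as labels that the counts did not check. Libraries held between 14191401 and 15955863 counts. Cd8a stood at 3.07 to 3.97 times the level of Cd4 per length of exon, against the label of CD4+ cells. WT replicate 1 stood apart in genes of other cell types. As background for the counts that follow, 29.8% of all genes tested were higher in both KO libraries and 30.1% lower. Past the adjusted threshold, 2.39% were higher and 1.56% lower. The 8 B cell markers summed to 1120 and 670 CPM (counts scaled to the adjusted library size) in WT and to 379 and 336 CPM in KO, and all 8 were lower in both KO libraries, 5 of them past the adjusted threshold. The 5 genes of MHC class II presentation were all lower in KO past that threshold, and their sum ran from 3780 CPM in WT replicate 1 to 1007 CPM in KO replicate 2. Of 6 T cell markers 5 were higher in both KO libraries, 3 of them past the threshold, with sums of 1048 and 1182 CPM in WT and 1684 and 1738 CPM in KO. Erythroid markers summed to 138 and 34.4 CPM in WT and to 8.48 and 4.80 CPM in KO. Of the 6 tested, 5 were lower in both KO libraries, 2 of them past the threshold, and 1, Epor, was higher in both. The part of these cells in the results below was not tested, and in a bulk sample fewer cells of a type cannot be told apart from less RNA per cell.

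Of the 38 carriers tested, 1 rose in KO libraries, Slc25a23, and 1 fell, Slc25a22, at an adjusted p under 0.05 in edgeR's quasi-likelihood test over all 12752 genes tested. That is 5.26% of the carriers, and 3.95% of all genes tested were called (2.39% higher and 1.56% lower), so the family's share lay near the background. The median log2 fold change of the carriers was 0.01, with 20 values above 0 and 18 below. An unadjusted p under 0.05 was reached by 13 carriers (34.2%, against 25.5% of all genes tested), 5 of them higher and 8 lower, while 12.8% of all genes were higher and 12.7% lower. The groups did not overlap in 26 carriers (68.4%, against 59.9% of all genes tested). Of these, 13 were higher in KO (all genes 29.8%) and 13 lower (30.1%). A change of at least 1 on the log2 scale was found for 4 carriers (10.5%, against 14.2%). The summed level of all 46 genes was 3011 and 3316 CPM in WT and 3135 and 3500 CPM in KO, so the groups overlapped. With WT replicate 1 left out, Slc25a22 and Slc25a23 were again the carriers called, and 3.51% of all genes were. Without WT replicate 2, 9 carriers were called (23.7%), and so were 19.8% of all genes. DESeq2 called 6 carriers (15.8%) and 12.8% of all genes, and edgeR with no filter on low counts called 4 (8.89%) and 7.73% of all genes. With the replicate number as a block the same 2 carriers and 6.97% of all genes were called. Without KO replicate 1 or 2, edgeR called no carrier and no other gene, and the median log2 fold change of the carriers was 0.0 and 0.01. In those fits the lone KO library is assumed to vary like the WT pair.

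**Figure D1:**
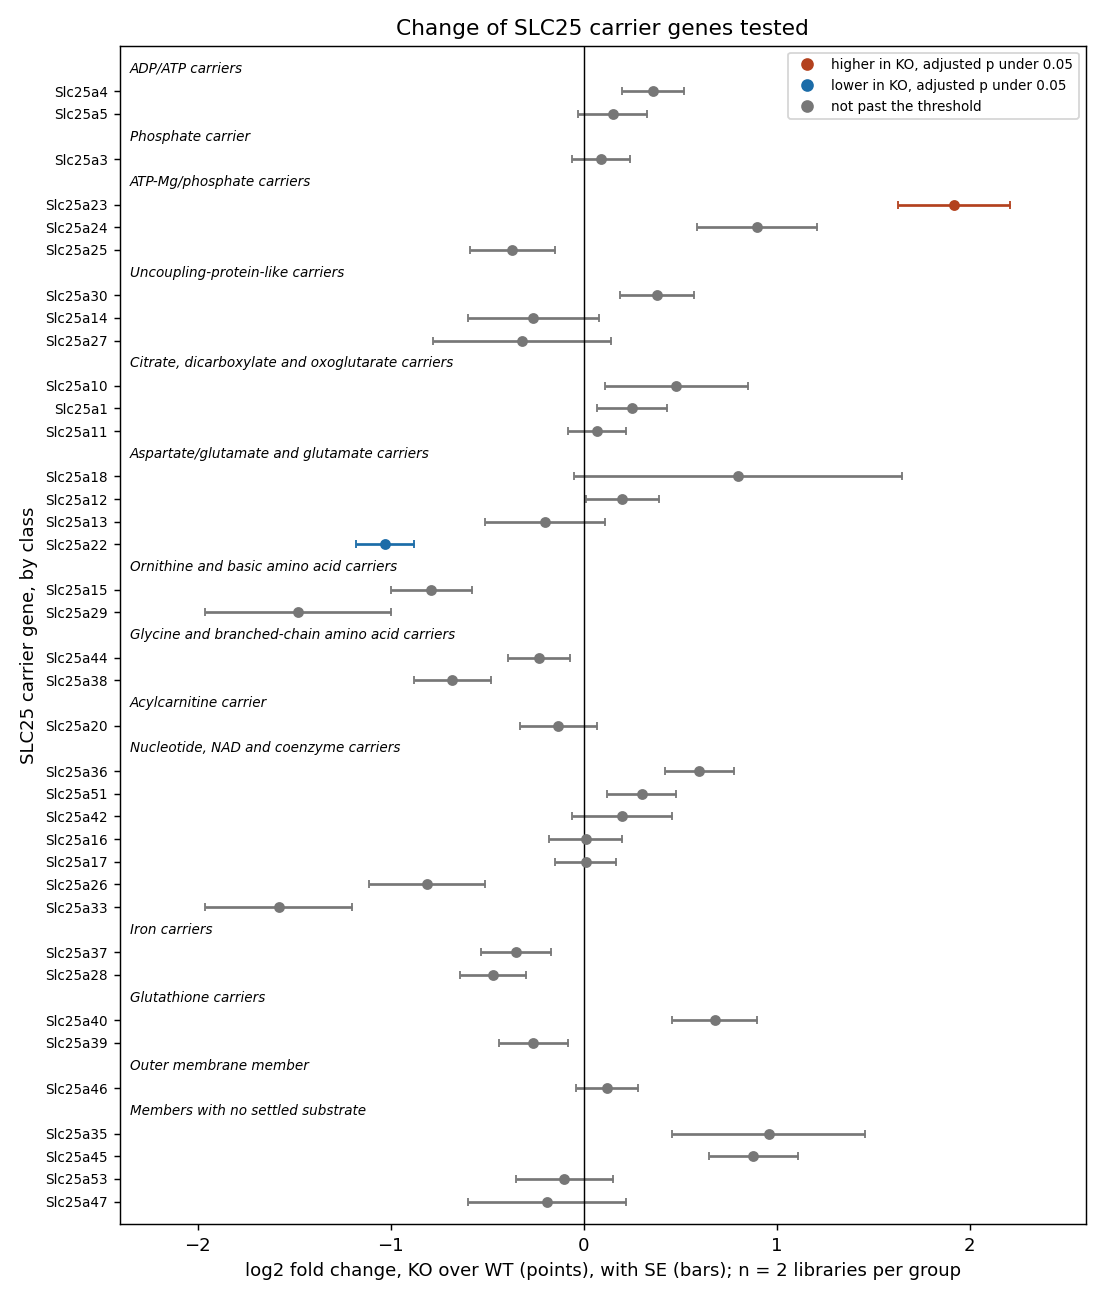
Log2 fold change of KO over WT libraries for 37 of the 38 SLC25 carrier genes tested, grouped by class; points are fitted values and bars are SE, with n = 2 libraries per group. Slc25a23 lies highest at 1.92, Slc25a22 at -1.03 is the only carrier lower in KO past the threshold, and 24 of the 37 lie within 0.5 of 0.

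The gene that fell encodes a mitochondrial glutamate carrier, a glutamate and proton symporter. Slc25a22 spans positions 141429744 to 141437892 of chromosome 7 (GRCm38, minus strand) and shares no exon bases with another annotated gene. It stood at 89.3 and 82.8 CPM in WT replicates and at 41.9 and 42.4 CPM in KO replicates. The libraries of each group lay close together, and the groups were far apart. The log2 fold change was -1.03 ± 0.15 (SE, n = 2 libraries per group, adjusted p = 0.0357). Slc25a18, the other glutamate carrier, was barely present, with 21 and 3 counts in WT and 17 and 20 counts in KO libraries.

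The gene that rose encodes a calcium-regulated exchanger of ATP-Mg for phosphate, which adjusts the adenine nucleotide content of the matrix. Slc25a23 lies on the minus strand of chromosome 17 (57043711 to 57059863), and 4.2% of its exon bases are shared with an annotated gene of the opposite strand. It stood at 4.09 and 6.08 CPM in WT and at 19.4 and 19.1 CPM in KO. Every KO value was more than 3 times every WT value. The log2 fold change was 1.92 ± 0.29 (adjusted p = 0.0358), and it was 1.66 without WT replicate 1. Without KO replicate 1 or 2 the log2 fold changes were -1.02 and -1.04 for Slc25a22 and 1.91 and 1.93 for Slc25a23. Both calls were nevertheless lost, with an adjusted p of 0.322 without KO replicate 1, and of 0.199 for Slc25a22 and 0.185 for Slc25a23 without KO replicate 2.

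The promoters of these genes are shown because they are the 2 members that passed the test. Sequences are RefSeq promoter windows of GRCm38.p6, cut to the stretch before the start that lies in no exon of a protein-coding gene, and RefSeq windows were matched for 36 of the 46 members. Capitals mark matches, on either strand, to CACGTG, the E-box bound by MYC and related factors, or to ACGTG or GCGTG, the core bound by hypoxia-inducible factors. CACGTG contains ACGTG, so such a match counts for both. The Slc25a22 stretch is chr7:141435398-141435625 (minus strand), before an inner start of 3 annotated ones, and the Slc25a23 stretch is chr17:57059864-57060113 (minus strand).
Slc25a22: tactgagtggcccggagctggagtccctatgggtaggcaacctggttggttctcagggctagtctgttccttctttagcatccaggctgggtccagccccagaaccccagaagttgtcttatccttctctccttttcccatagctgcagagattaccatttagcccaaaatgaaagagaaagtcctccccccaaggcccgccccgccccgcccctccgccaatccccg
Slc25a23: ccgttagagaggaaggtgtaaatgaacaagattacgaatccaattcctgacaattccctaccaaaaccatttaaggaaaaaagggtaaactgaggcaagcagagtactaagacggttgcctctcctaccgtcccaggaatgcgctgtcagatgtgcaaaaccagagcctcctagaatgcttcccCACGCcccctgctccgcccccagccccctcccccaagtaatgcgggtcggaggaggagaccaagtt
The Slc25a22 stretch held 0 matches, although the window of another of its starts held the hypoxia core. By comparison, the Slc25a23 stretch held 1 match to the hypoxia core, 66 bases before the start. Over whole windows of 300 bases, 60.0% of the 30 tested carriers with a window held the hypoxia core and 20.0% (6 genes) held CACGTG. The same shares over the 9558 tested genes with a window were 67.8% and 11.8%, and over all 27025 genes with one 46.7% and 8.09%. A match is a run of letters and not a measured binding site.

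The ATP-Mg/phosphate carriers differed in makeup between WT and KO libraries. Slc25a24, a close relative of Slc25a23, stood at 6.66 and 9.94 CPM in WT and 17.7 and 13.1 CPM in KO (log2 fold change 0.90 ± 0.31, adjusted p = 0.138). Slc25a25, the third relative, stood at 23.7 and 30.7 CPM in WT and 18.9 and 23.2 CPM in KO (-0.37 ± 0.22, adjusted p = 0.341). Neither passed the threshold, though the groups did not overlap in either gene. Of the counts of these 3 genes, Slc25a23 held 11.9% (95% Wilson interval 9.46% to 14.8%) and 13.0% (10.7% to 15.7%) in WT libraries. Its share was 34.6% (31.3% to 37.9%) and 34.5% (31.2% to 37.9%) in KO libraries. The share of Slc25a25 went the other way, from 68.8% and 65.7% in WT to 33.8% and 41.8% in KO libraries. These intervals cover counting error only. With 2 libraries against 2 an exact permutation test cannot give a p below 0.333, so shares were not tested. Here and below, shares are of counts and are not scaled by exon length. The fourth member, Slc25a41, lies 2056 bases from Slc25a23 on the same strand and had 0 counts in all libraries except KO replicate 2, with 1.

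The pyrimidine nucleotide carriers, which exchange uridine and cytidine nucleotides across the inner membrane, gave log2 fold changes of opposite sign, and neither passed the threshold. Slc25a33 stood at 29.5 and 19.0 CPM in WT and at 5.52 and 10.8 CPM in KO. Its log2 fold change was -1.58 ± 0.38, the lowest of all carriers tested, but the spread within both groups was wide and it missed the threshold (adjusted p = 0.0666). Of its exon bases 14.9% are shared with an annotated gene of the opposite strand, Gm13068. Slc25a36 stood at 55.8 and 48.3 CPM in WT and at 86.9 and 70.6 CPM in KO (0.60 ± 0.18, adjusted p = 0.104). The groups did not overlap in either gene. The sum of both genes did not separate the groups, at 85.3 and 67.3 CPM in WT and 92.4 and 81.4 CPM in KO. Slc25a33 held 34.6% (95% Wilson interval 32.1% to 37.1%) and 28.2% (25.5% to 31.1%) of the counts of both genes in WT libraries. Its share was 5.97% (4.81% to 7.39%) and 13.2% (11.4% to 15.3%) in KO libraries. Slc25a36 has the longer exons. In CPM per kilobase of exon, Slc25a33 stood at 15.6 and 10.1 in WT and 2.92 and 5.7 in KO. Slc25a36 stood at 10.5 and 9.1 in WT and 16.4 and 13.3 in KO. Per length, Slc25a33 was thus the lower of the pair in KO. It was the higher within each WT library, but the WT ranges of the pair overlapped, so their order in WT is not set by the data. DESeq2 called both genes, with adjusted p of 0.00352 for Slc25a33 and 0.0492 for Slc25a36.

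The promoters of this pair are shown because the genes carry the same cargo and had fold changes of opposite sign. The Slc25a33 stretch is chr4:149774278-149774517 and the Slc25a36 stretch is chr9:97111158-97111291, both on the minus strand, with capitals as above.
Slc25a33: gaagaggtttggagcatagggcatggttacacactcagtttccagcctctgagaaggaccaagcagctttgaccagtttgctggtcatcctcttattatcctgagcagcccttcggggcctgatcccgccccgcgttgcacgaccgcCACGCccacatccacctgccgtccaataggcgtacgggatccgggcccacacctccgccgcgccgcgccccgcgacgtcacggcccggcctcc
Slc25a36: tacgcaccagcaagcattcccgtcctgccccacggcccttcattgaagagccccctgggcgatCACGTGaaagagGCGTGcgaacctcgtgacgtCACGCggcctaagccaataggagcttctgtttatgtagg
The Slc25a33 stretch held 1 match to the hypoxia core, 103 bases before the start. The Slc25a36 stretch held CACGTG 187 bases before the start and, with it, 4 matches to the hypoxia core over both strands. The whole RefSeq windows of both genes held CACGTG, so the window alone did not set these genes apart. The other tested carriers with CACGTG in a window were Slc25a1, Slc25a13, Slc25a14 and Slc25a15, with log2 fold changes of 0.25, -0.20, -0.26 and -0.79.

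**Figure D2:**
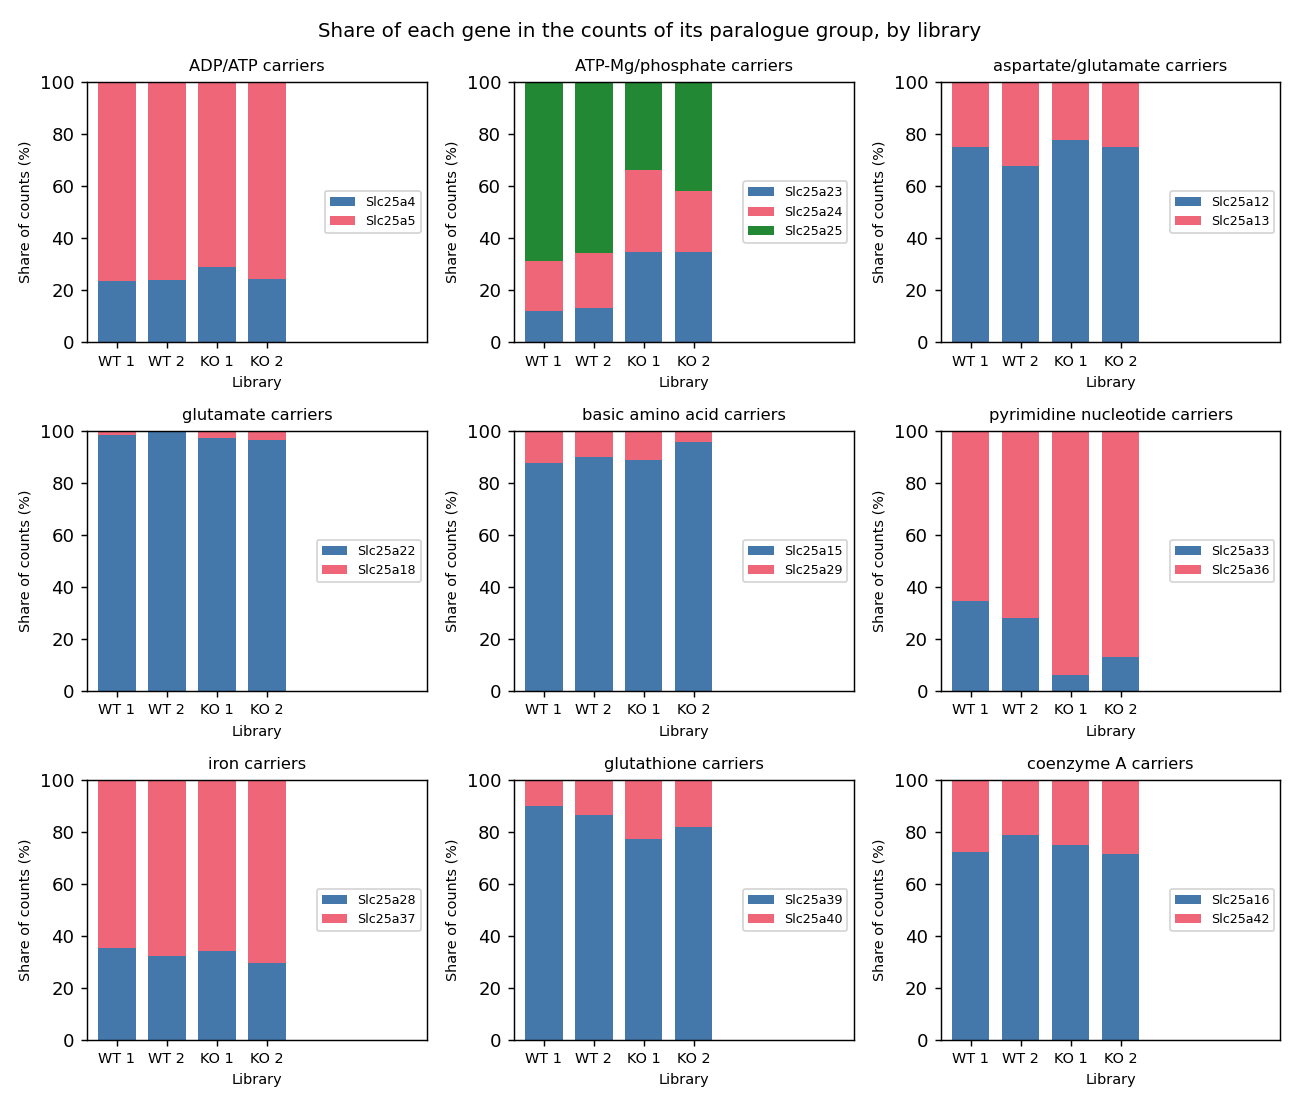
Share of each gene in the counts of its paralogue group, in percent, for the WT and KO libraries of replicates 1 and 2. Each bar is 1 library, and counts are not scaled by exon length. Slc25a23 went from 11.9% and 13.0% to 34.6% and 34.5% of its group and Slc25a33 from 34.6% and 28.2% to 5.97% and 13.2%, while the makeup of the iron carriers overlapped between groups.

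Carriers of basic amino acids were lower without passing the threshold. Slc25a15, the ornithine carrier of the urea cycle, stood at 44.3 and 41.1 CPM in WT and at 20.4 and 29.0 CPM in KO (-0.79 ± 0.21, adjusted p = 0.0830). Slc25a29, which carries arginine, lysine and ornithine, had 100 and 68 counts in WT and 36 and 18 counts in KO libraries (-1.48 ± 0.48, adjusted p = 0.122). Both were lower in both KO libraries, and the sum of the pair was 50.5 and 45.7 CPM in WT, with KO at 23.0 and 30.3. Slc25a47, whose gene starts 162 bases from that of Slc25a29 on the other strand, stood at 3.30 and 3.72 CPM in WT and 2.69 and 3.44 CPM in KO, and its groups overlapped. DESeq2 called Slc25a15 lower (adjusted p = 0.0325). Slc25a2, another ornithine carrier, had between 1 and 7 counts in a library and was not tested.

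Carriers of glycine, of branched-chain amino acids and of the malate-aspartate shuttle gave no further call. Slc25a38, the glycine carrier that feeds heme synthesis, stood at 41.0 and 31.5 CPM in WT and at 21.8 and 23.3 CPM in KO (-0.68 ± 0.20, adjusted p = 0.0996). The groups did not overlap. Slc25a44, which imports branched-chain amino acids, lay at -0.23 ± 0.16. The aspartate/glutamate exchangers of the shuttle, Slc25a12 and Slc25a13, lay at 0.20 ± 0.19 and -0.20 ± 0.31 and overlapped between groups. Slc25a13 had 426 and 688 counts in WT and 369 and 517 counts in KO libraries, a wide spread within both groups.

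Iron and glutathione carriers each come as a pair. The mitoferrins Slc25a28 and Slc25a37 bring iron to the sites of heme and iron-sulfur cluster synthesis. Slc25a28 stood at 35.1 and 36.1 CPM in WT and at 26.2 and 25.1 CPM in KO (-0.47 ± 0.17, adjusted p = 0.144). Slc25a37, which red cell precursors express strongly, stood at 64.3 and 76.5 CPM in WT and 50.6 and 59.7 CPM in KO (-0.35 ± 0.18, adjusted p = 0.260). The summed erythroid markers given above were also lower in both KO libraries, and their part in these values was not tested. Of the glutathione carriers, Slc25a40 stood at 15.9 and 21.4 CPM in WT and at 30.3 and 29.4 CPM in KO (0.68 ± 0.22, adjusted p = 0.119). Slc25a39 stood at 145 and 137 CPM in WT and at 102 and 133 CPM in KO (-0.26 ± 0.18, adjusted p = 0.398). Slc25a40 therefore held 9.86% (8.78% to 11.1%) and 13.5% (12.2% to 15.0%) of the counts of this pair in WT libraries and 22.9% (21.0% to 24.8%) and 18.1% (16.5% to 19.7%) in KO libraries (95% Wilson intervals).

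No carrier of a cofactor passed the threshold. Slc25a26, which imports the methyl donor S-adenosylmethionine, had 202 and 162 counts in WT and 77 and 109 counts in KO libraries (-0.81 ± 0.30, adjusted p = 0.157). It was lower in both KO libraries, and 7.2% of its exon bases are shared with Lrig1 on the opposite strand. Slc25a51, the NAD carrier, lay at 0.30 ± 0.18, with groups that did not overlap. Slc25a16 and Slc25a42, linked to coenzyme A, and Slc25a17, the peroxisomal member, lay between 0.01 and 0.20.

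**Figure D3:**
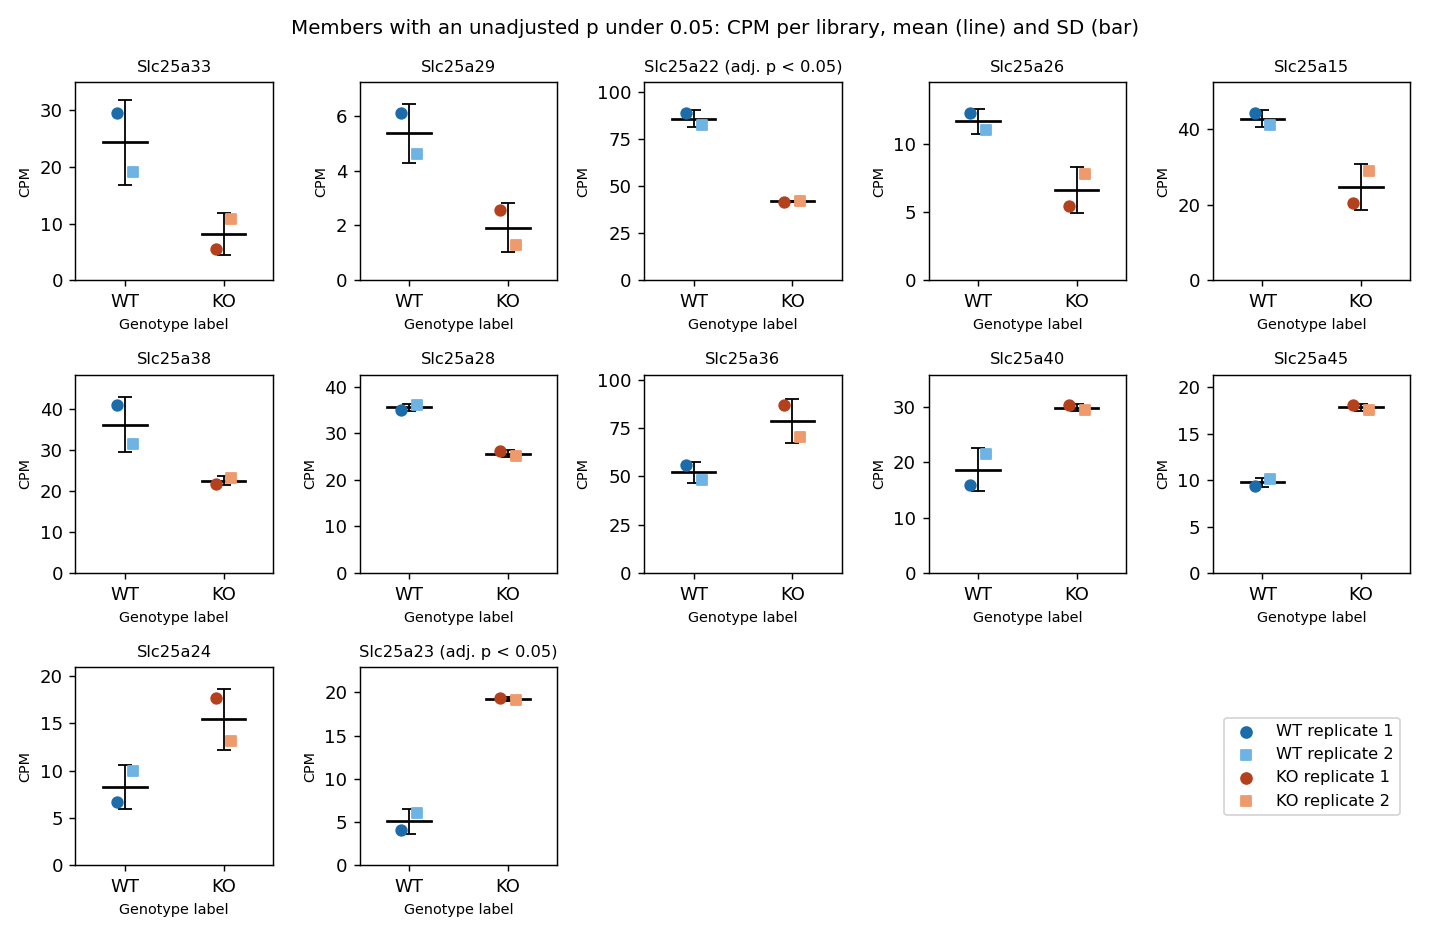
CPM in each library for 12 of the 13 carriers with an unadjusted p under 0.05; lines are group means and bars are SD, with n = 2 libraries per group and every axis starting at 0. The groups do not overlap in any of the 12, which were picked by p in these same libraries, nor in 59.9% of all genes tested. Slc25a22 and Slc25a23 are the only ones of the 12 with an adjusted p under 0.05.

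The most abundant carriers were those of energy supply, and none of them passed the threshold. Levels of different genes were compared as CPM per kilobase of annotated exon. Slc25a5, the ADP/ATP carrier of dividing cells, was highest at 536 and 642 in WT and 578 and 725 in KO libraries. Slc25a3, the phosphate carrier that feeds ATP synthase, followed at 428 and 460 in WT and 447 and 500 in KO, and its range overlapped none of the Slc25a5 values. Slc25a4, the ADP/ATP carrier best known from heart and muscle, came next at 105 and 129 in WT and at 151 in both KO libraries. These 3 genes held between 56.5% and 61.8% of the counts of all members, from 1701 to 2163 CPM in sum. Their log2 fold changes were 0.15 ± 0.18 for Slc25a5, 0.09 ± 0.15 for Slc25a3 and 0.36 ± 0.16 for Slc25a4 (adjusted p = 0.646, 0.733 and 0.201). In Slc25a4 alone of the 3 the groups did not overlap. Slc25a5 has 2 near-identical loci elsewhere in the annotation, at 95% identity or more over at least 300 bases, which are not rows of the tables and could take reads from it. The same holds for 1 locus each of Slc25a36 and Slc25a40. Slc25a37 has 2 such loci, of which 1 was counted, with 0 and 15 counts in WT and 2 and 0 counts in KO libraries.

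Below them stood Slc25a39 (60.6 to 86.2 CPM per kilobase over the libraries), the oxoglutarate/malate carrier Slc25a11 (54.6 to 59.5), the citrate carrier Slc25a1 (40.3 to 55.3) and Slc25a17 (39.0 to 43.8). Ranges of Slc25a11 and Slc25a1 overlapped, as did those of Slc25a1 and Slc25a17, so the order within these neighbours is not set by the data. Slc25a22 and Slc25a28 were also among the 10 highest, at mean levels of 22.2 and 20.0. The median size of the log2 fold change was 0.26 among these 10 and 0.38 among the other 28, beside 0.34 over all genes tested. The lowest tested member was Slc25a18 at a mean of 0.539 CPM per kilobase.

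**Figure D4:**
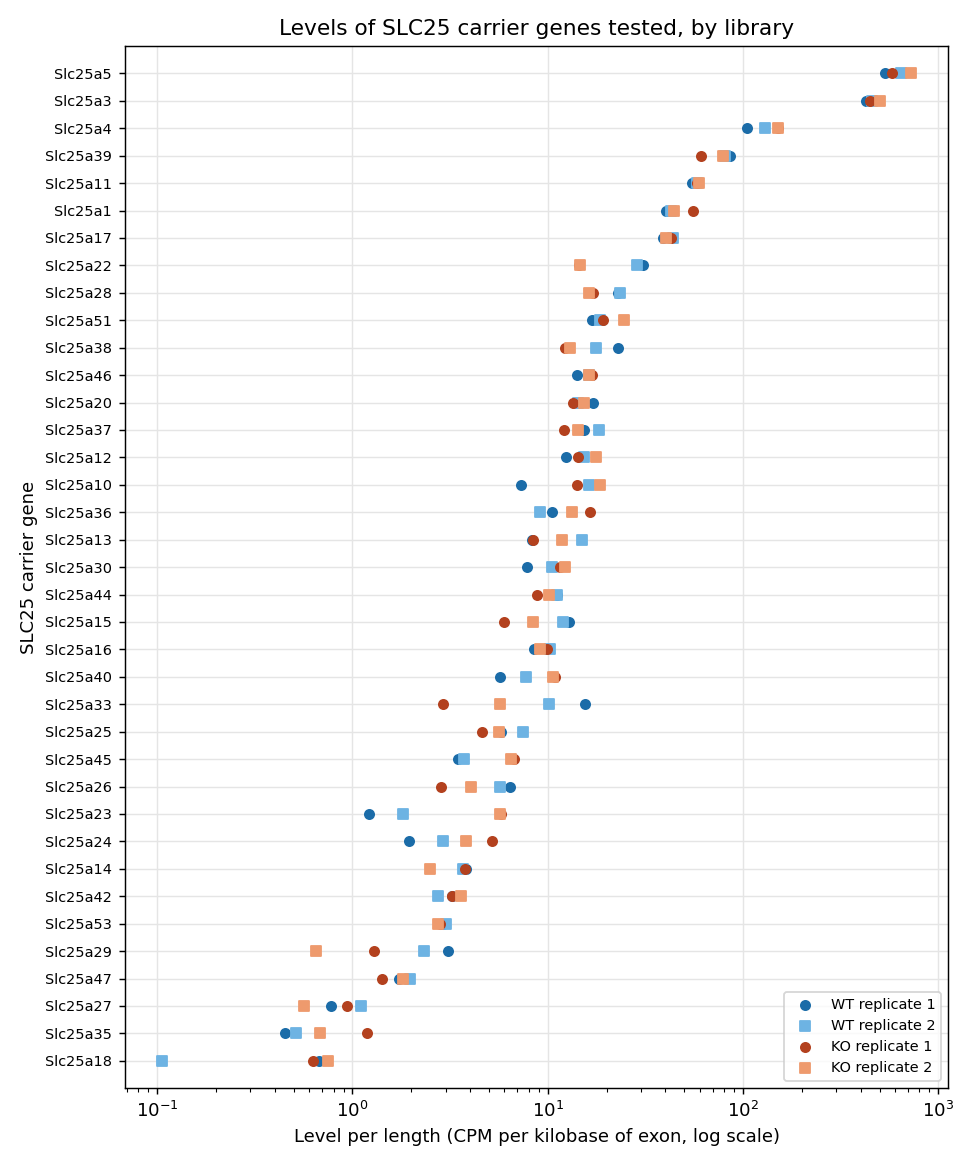
Level of 37 of the 38 SLC25 carrier genes tested, in CPM per kilobase of exon on a log axis, with 1 point for each WT and KO library. Slc25a5, Slc25a3 and Slc25a4 stand above all others, and WT and KO points are apart in Slc25a23, Slc25a33 and Slc25a4 and overlap in Slc25a5 and Slc25a3.

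Among the carriers of organic acids, Slc25a1, which exports citrate for lipid synthesis, lay at 0.25 ± 0.18 and Slc25a11 at 0.07 ± 0.15. Slc25a10, the dicarboxylate carrier, had 14.8 and 32.8 CPM in WT and 28.7 and 37.3 CPM in KO (0.48 ± 0.37, adjusted p = 0.456). WT replicate 1 was the low library. Slc25a10 was called higher without WT replicate 2 (1.16, adjusted p = 0.0175), while without WT replicate 1 its log2 fold change was 0.02 (adjusted p = 0.979). Slc25a21, a carrier of longer dicarboxylates, had 5 and 4 counts in WT and 0 in both KO libraries, and a count of 0 allows up to 0.215 CPM. The acylcarnitine carrier Slc25a20, which serves fat oxidation, lay at -0.13 ± 0.20. Of the uncoupling-protein-like carriers Slc25a30 lay at 0.38 ± 0.19, with groups that did not overlap, and Slc25a14 and Slc25a27 at -0.26 ± 0.34 and -0.32 ± 0.46. Slc25a46, an outer membrane member with a part in mitochondrial shape, lay at 0.12 ± 0.16.

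Among members with no settled substrate, Slc25a45 stood at 9.41 and 10.1 CPM in WT and at 18.1 and 17.6 CPM in KO. The libraries of each group were close together and the groups were far apart, and its log2 fold change of 0.88 ± 0.23 missed the threshold (adjusted p = 0.0786). DESeq2 called it higher (adjusted p = 0.0288). Slc25a35 had 27 and 28 counts in WT and 62 and 35 counts in KO libraries (0.96 ± 0.50, adjusted p = 0.273), and 22.3% of its exon bases are shared with Rangrf on the opposite strand. Slc25a53 and Slc25a47 lay at -0.10 ± 0.25 and -0.19 ± 0.41.

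The 8 members under the filter were nearly silent. Slc25a48 had 0 counts in every library, and Slc25a31, the ADP/ATP carrier of the testis, had 2 counts in KO replicate 2 alone. Slc25a34, Slc25a41 and Slc25a54 had 1 count each, in the same library. Slc25a43 had 14 counts in WT replicate 1, 2 in KO replicate 1 and 0 in the others, while Slc25a5, its neighbour 18448 bases away on chromosome X, was the highest member. Slc25a2 and Slc25a21, described above, were the others. No fold was formed for these genes.

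Few carriers varied widely between the libraries of a group. The ratio of WT replicates 1 and 2 passed 1.5-fold in 4 of the 38 carriers (10.5%) and in 20.1% of all genes tested. In the KO pair it did so in 4 carriers (10.5%) and in 12.4% of all genes. Slc25a33 was in both sets, together with Slc25a10, Slc25a13 and Slc25a18 in WT and Slc25a27, Slc25a29 and Slc25a35 in KO libraries. These ratios were taken after adding 0.5 CPM.

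Genes that work beside the carriers gave 1 call among 77 tested of 82 listed (1.3%, against 3.95% of all genes), with a median log2 fold change of -0.03. It was Pprc1, a coactivator of nuclear genes for mitochondria, which fell from 295 and 266 CPM in WT to 125 and 153 CPM in KO (-1.01 ± 0.16, adjusted p = 0.0397). The other 7 regulators tested were not called. In the import machinery that inserts carriers into the inner membrane, edgeR called 0 of 13 genes with all libraries and the filter. At an unadjusted p under 0.05 there were 5 lower genes and 0 higher ones, beside 12.7% and 12.8% of all genes. The lowest adjusted p were those of Timm10 and Timm9, a pair of chaperones that escort carriers between the membranes. Timm10 stood at 34.1 and 28.3 CPM in WT and 15.0 and 17.2 CPM in KO (-0.96 ± 0.21, adjusted p = 0.0535). Timm9 lay at -0.74 ± 0.18 (adjusted p = 0.0623). DESeq2 called both, as did edgeR with no filter. Of the other small chaperones of this list, Timm8a1 was also lower, at -0.64 ± 0.21 (adjusted p = 0.128). Timm13 lay at -0.23, Timm8b at 0.02 and Timm10b at 0.35. All were named after their values were seen.

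Other families of mitochondrial transport gave 0 edgeR calls with all libraries, the filter and no block. Of the family members that go by other names, Mtch1, an outer membrane protein, stood at 59.0 and 116 CPM in WT and 203 and 199 CPM in KO (1.20 ± 0.30, adjusted p = 0.0723). Ucp2, the uncoupling protein of immune cells, lay at 0.34 ± 0.16. The pyruvate carriers Mpc1 and Mpc2 lay at 0.28 ± 0.46 and -0.16 ± 0.19. Of the 5 sideroflexins, a family that includes the serine carrier, Sfxn2 lay at -0.64 ± 0.24 and Sfxn3 at 0.59 ± 0.23. The porin Vdac1, the outer membrane's channel for metabolites, lay at 0.57 ± 0.18 (adjusted p = 0.117), and Vdac2 at -0.27 ± 0.17. The calcium uniporter group (9 genes) and the mitochondrial ABC transporters (4 genes) had medians of 0.04 and 0.14. Mcur1 and Slc8b1 of the calcium group lay at -0.52 ± 0.18 and 0.53 ± 0.30, and Abcb10 and Abcb8 at 0.47 ± 0.22 and 0.18 ± 0.15. At an unadjusted p under 0.05 these lists held 3 higher genes and 2 lower ones, beside 12.8% and 12.7% of all genes. Tested were 3 members under other names, 2 pyruvate carriers, 5 sideroflexins, 3 porins, 9 calcium group genes and 4 ABC transporters. DESeq2 called Mtch1 and Vdac1, and 12.8% of all genes. Mtch1 was also called by edgeR with no filter, with the replicate block and without either WT library.

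Enzymes that make or use the carriers' cargo gave 0 edgeR calls among 30 tested with all libraries, the filter and no block. At an unadjusted p under 0.05 there were 3 higher genes and 6 lower ones, beside 12.8% and 12.7% of all genes. Cpt1a, which loads fatty acids onto carnitine, had the lowest adjusted p, at 40.3 and 55.4 CPM in WT and 83.9 and 107 CPM in KO (1.00 ± 0.22, adjusted p = 0.0541). Got1, the cytosolic aspartate aminotransferase, lay at -0.66 ± 0.15 (adjusted p = 0.0610). DESeq2 called 6 of the 30 tested, and 12.8% of all genes. The 6 are named here after their values were seen. Cpt1a and Mdh1 were higher, and Got1, Mat2a, Bcat1 and Tfrc, the transferrin receptor counted here with iron supply, were lower. With no filter edgeR called 5 of these, all but Mdh1, and Cpt1a was also called by limma-voom and by edgeR with the replicate block. The sums of the B cell and MHC class II markers were lower in the same KO libraries, and their part in these values was not tested.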

How the data were processed

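The authors deposited 1 table of whole-number read counts per gene symbol for each library, not normalized. The submitters' processing notes list DESeq2 1.30.1, featureCounts, Subread 2.0.1, R 4.0.4 and the build mm10. Which aligner and annotation release were used, whether strand was, and how multiply mapped reads were treated is not given in the sources used here, so reads of copies and antisense partners could not be told apart.

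Counts were fitted over all genes in R 4.3.3 with edgeR 4.0.16 (filterByExpr with minimum count 10 and minimum total 15, TMM factors, quasi-likelihood test, all 4 libraries, no covariate), and p-values were Benjamini-Hochberg adjusted over 12752 genes. SE is the fitted log2 fold change divided by the root of its F statistic. CPM values divide each count by its library's total over the genes tested, times the TMM factor. Gene models and lengths are those of GENCODE M21 (GRCm38). Alternatives used DESeq2 1.42.0 and limma 3.58.1. Replicates differed beyond counting error (chi-square per degree of freedom 37.4 for WT and 15.2 for KO).

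The members and gene lists were chosen with earlier results of these data known. Members named with values in every library are those called, those with an unadjusted p under 0.05 or a log2 fold change of at least 1 either way, the 10 highest per length, and members that share cargo with these. Of other lists the called genes, or the 2 with the lowest adjusted p, are named. Of 46 cell type markers, 45 were found in the tables. Of 9 myeloid, 3 platelet and 3 NK cell markers, 4, 1 and 2 were tested. They had 0 calls with edgeR, and 2, 0 and 1 were lower at an unadjusted p under 0.05, beside 12.7% of all genes. Myeloid markers summed to 26.3 and 7.44 CPM in WT and 6.5 and 5.52 CPM in KO. Platelet markers summed to 2.63 and 1.96 CPM in WT and 2.83 and 1.94 CPM in KO. NK cell markers summed to 4.09 and 3.65 CPM in WT and 1.48 and 2.87 CPM in KO. A member that was tested is counted in every total but is not reported by name here.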

Additional observations from a re-analysis of the deposited data

How the results depend on the processing

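Slc25a22 and Slc25a23 kept their call and direction under other scaling factors, other filters, DESeq2, limma-voom, the replicate block and with either WT library left out, and lost the call without either KO library. The number of carriers called was 4 with no filter on low counts and 6 with DESeq2 (12.8% of all genes), and 0 to 9 when single libraries were left out. For all genes, 504 were called, 1419 with no filter, 1633 with DESeq2 and 0 to 2524 with single libraries left out. Leaving out KO replicate 1 or 2 gave a median log2 fold change of -0.01 or -0.0 over all genes. Over the genes beside the carriers it was 0.01 or -0.08. Of the genes beside the carriers 9 were called with no filter, 11 with DESeq2, 2 with limma-voom, and 0 to 16 with single libraries left out. With the replicate number as a block, 889 genes, 2 carriers and 3 of the genes beside them were called. Same-numbered libraries did not deviate together (correlation 0.0397 over genes), so the numbers were not taken as pairs.

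Changes of sign were seen in small changes that were not called. With library size only, Slc25a16 lay at -0.03 and Slc25a17 at -0.04. Across fits without single libraries, Slc25a5 ranged from -0.03 to 0.30, Slc25a13 ranged from -0.55 to 0.28, Slc25a14 ranged from -0.59 to 0.01, Slc25a16 ranged from -0.11 to 0.17, Slc25a17 ranged from -0.06 to 0.10, Slc25a20 ranged from -0.25 to 0.01. The cause was not tested. Without single libraries, the KO minus WT difference in share ranged from 21.5 to 22.6 percentage points for Slc25a23, -25.5 to -18.2 for Slc25a33 and -11.1 to -6.36 for Slc25a39. It ranged from 0.809 to 5.3 points for Slc25a4 and 0.00593 to 6.82 for Slc25a15, and changed sign for Slc25a28 (-4.11 to 0.435) and Slc25a16 (-5.61 to 1.04).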
